A study of Mus musculus with 6 samples.

Results

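The report concerns 8 genes of muscle wasting: the ubiquitin ligases Fbxo32, Trim63, Fbxo30, Nedd4, Cblb and Traf6, and the transcription factors Foxo1 and Foxo3. They were chosen by name, as were the other gene lists, with earlier results of these data known. A gene's level was the mean log2 signal of the probe sets annotated with its symbol alone. All 8 were found among 22180 such genes, on 9 probe sets (Foxo1 had 2, the others 1 each), and all 8 reached the floor of 5.06, the median of all values, on at least 1 array. The cells were C2C12, an established line of mouse myoblasts, which proliferate in high serum and fuse to form myotubes once serum is withdrawn. There were 6 cultures with 1 Affymetrix array for each, and all 6 carry the same cell type label, C2C12 myoblasts. In 2% differentiation medium, harvested on day 5, the cultures received BTZ at 10 nM on day 4, TNF-α at 50 ng/ml on day 4, or neither. In growth medium with 10% FBS they received BTZ at 10 nM for 24 h, TNF-α at 50 ng/ml for 24 h, or neither. BTZ is left unexplained in the labels; it is the usual short form of bortezomib, a proteasome inhibitor. TNF-α is an inflammatory cytokine that signals to NF-kB.

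Muscle loses protein in wasting largely through the ubiquitin-proteasome system, in which E3 ligases choose the proteins to be marked with ubiquitin and the proteasome degrades them. Fbxo32 (atrogin-1) is the substrate receptor of an SCF ligase and Trim63 (MuRF1) is a RING ligase of the sarcomere; both are the standard markers of atrophying muscle. FoxO factors drive both genes when insulin and Akt signalling is low, since Akt otherwise keeps FoxO proteins out of the nucleus. Inflammatory signals reach the same genes through p38, NF-kB and the ligase Traf6.

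The promoter windows of 3 ligases are printed for the following reasons: the fit called Traf6 and Fbxo30 higher with BTZ, and Trim63 had the widest range of the 8 members, with no call over all arrays. Each window runs from 250 bases before to 50 bases after the annotated start, on the gene's strand, from RefSeq on GRCm38.p6. A window was given for 7 of the 8 members, 8 windows in all, and none for Fbxo32. The windows of Nedd4, which the fit called lower with BTZ, are not printed. Capitals mark matches on either strand to the FoxO element GTAAACA, the insulin response element CAAAACA, the E-box CANNTG, the NF-kB element or the TATA box TATAAA.
Trim63 (chr4:134314870-134315169, + strand): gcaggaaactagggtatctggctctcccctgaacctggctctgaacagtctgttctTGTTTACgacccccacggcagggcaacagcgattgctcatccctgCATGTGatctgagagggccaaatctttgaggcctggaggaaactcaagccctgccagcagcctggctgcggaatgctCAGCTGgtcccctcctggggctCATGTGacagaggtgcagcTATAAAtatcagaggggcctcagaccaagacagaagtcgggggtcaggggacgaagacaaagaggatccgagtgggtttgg
Traf6 (chr2:101678170-101678469, + strand): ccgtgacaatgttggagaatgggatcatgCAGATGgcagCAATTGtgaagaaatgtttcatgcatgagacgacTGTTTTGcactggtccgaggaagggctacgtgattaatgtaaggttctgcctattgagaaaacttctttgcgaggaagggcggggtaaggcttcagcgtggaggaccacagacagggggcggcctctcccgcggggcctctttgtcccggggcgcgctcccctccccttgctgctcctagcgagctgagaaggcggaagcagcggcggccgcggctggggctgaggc
Fbxo30 (chr10:11281337-11281636, + strand): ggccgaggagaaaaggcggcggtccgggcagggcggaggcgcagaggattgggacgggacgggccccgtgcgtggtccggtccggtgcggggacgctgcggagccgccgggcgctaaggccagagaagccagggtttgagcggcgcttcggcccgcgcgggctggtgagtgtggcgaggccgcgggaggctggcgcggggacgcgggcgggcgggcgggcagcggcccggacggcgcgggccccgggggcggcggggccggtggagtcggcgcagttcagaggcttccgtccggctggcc
The FoxO element stood in 1 of the 8 member windows, that of Trim63, where it began at position -194 from the start in reverse orientation; 3.65% of 32851 windows of the same length held it. Trim63 also had 3 E-boxes, 1 of them of the form CAGCTG that myogenic factors favour, at position -72, and a TATA box at -31. CAGCTG stood in 2 of the 8 member windows, the other being of Nedd4, and in 16.3% of all windows. TATAAA stood in 1 of the 8 and in 13.6% of all. The Traf6 window held the insulin response element at -177, which 6.28% of windows had, and 2 E-boxes, a motif present in 72.3% of windows. The Fbxo30 window held none of these letters and was 79.7% G and C, against a median of 52.7% over all windows. The NF-kB element was in 0 of the 8 member windows and in 4.79% of all windows. A match is a string of letters and not a measured binding site.

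The array medians lay between 5.01 and 5.11 over 41345 probe sets. Of 13 skeletal muscle markers, 12 were at or above the floor on every differentiation medium array and 11 on every growth medium array. The mean log2 signal of that list was 7.81 with BTZ, 9.27 with TNF-α and 9.75 untreated in differentiation medium, and 6.26 with BTZ, 6.36 with TNF-α and 6.85 untreated in growth medium. On each array 0 of 5 endothelial markers, 1 or 2 of 6 macrophage markers and 0 to 2 of 5 adipocyte markers reached the floor. There was 1 array per group, so a difference between 2 arrays has no replicate check and no p-value, and nothing in the labels says that the cultures were grown independently. The only test is an additive model of medium and treatment over all 6 arrays (limma), with 2 residual degrees of freedom. A treatment that acts unequally in the media adds to its residual. Differences and effects are on the log2 scale throughout.

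Fbxo32, the F-box ligase, had log2 signals of 7.05 with BTZ, 8.77 with TNF-α and 8.95 untreated in differentiation medium. In growth medium they were 7.25 with BTZ, 9.01 with TNF-α and 7.53 untreated. The 6 arrays fell into 3 high values, namely both TNF-α cultures and the untreated differentiation culture, and 3 low ones, namely both BTZ cultures and the untreated growth culture. TNF-α in growth medium differed from untreated by 1.48, or 2.79-fold. Of the 13652 genes above the floor, 0.689% differed by as much in either direction, the smallest such share of any member in any pair. In differentiation medium the TNF-α difference was -0.18. BTZ differed from untreated by -1.90 in differentiation medium, a 3.73-fold lower level, and by -0.28 in growth medium. Differences as large were seen in 3.35% and 57.3% of these genes. Untreated cultures differed by 1.43 between differentiation and growth medium, whereas the TNF-α cultures differed by -0.23 and the BTZ cultures by -0.19. In the additive fit the BTZ effect was -1.09 (SE 0.43, adjusted p = 0.147), the TNF-α effect 0.65 (SE 0.43, adjusted p = 0.832) and the medium effect 0.33 (SE 0.35, adjusted p = 0.628). None of these passed 0.05, and the residual SD of Fbxo32, 0.67, was the largest of the 8 members.

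**Figure D1:**
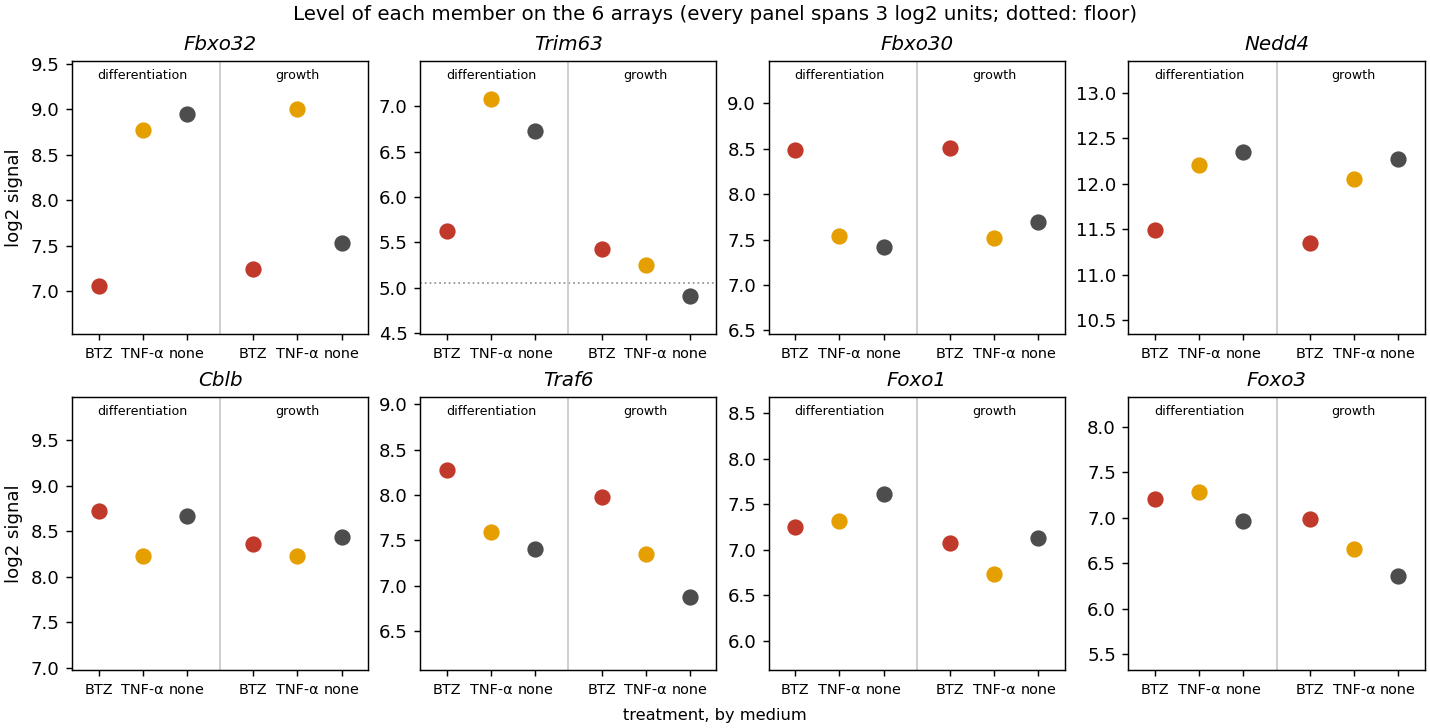
Log2 signal of each of the 8 members on the 6 arrays, 1 point per array, by treatment within differentiation medium (left of the grey line) and growth medium (right); every panel spans 3 log2 units and the dotted line is the floor of 5.06. Fbxo32 has 3 arrays between 8.77 and 9.01 and 3 between 7.05 and 7.53, while Fbxo30 and Traf6 are highest, and Nedd4 lowest, on both BTZ arrays.

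Trim63, the ligase of the thick filament, had signals of 5.62 with BTZ, 7.08 with TNF-α and 6.73 untreated in differentiation medium, against 5.43 with BTZ, 5.25 with TNF-α and 4.91 untreated in growth medium. The untreated and TNF-α cultures in differentiation medium stood above the other 4, whose neighbours in the order of levels lay closer than the spread of the fit. Untreated cultures differed by 1.82 between differentiation and growth medium, or 3.53-fold, a fold that background can compress because the growth array was under the floor. The TNF-α cultures differed by 1.83 between media and the BTZ cultures by 0.20. BTZ differed from untreated by -1.11 in differentiation medium and by 0.51 in growth medium, as large as in 12.2% and 33.2% of genes above the floor. TNF-α differed by 0.35 in differentiation medium and 0.34 in growth medium. The medium effect of the additive fit was 1.28 (SE 0.35) with an adjusted p of 0.105, and the residual SD was 0.66. With each array left out in turn, which leaves 1 array in an arm, the medium effect ran from 1.01 to 1.82. It was 1.82 without either BTZ array.

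Both relatives of Trim63 in the MuRF family, named for their kinship after their values were seen, also had higher untreated levels in differentiation than in growth medium. Trim55 (MuRF2) had signals of 8.26 with BTZ, 8.27 with TNF-α and 8.77 untreated in differentiation medium, against 6.48 with BTZ, 5.43 with TNF-α and 5.94 untreated in growth medium. Its medium effect was 2.48 (SE 0.25, adjusted p = 0.00859). Trim54 (MuRF3) differed by 1.28 between the untreated media and by 0.11 between the BTZ cultures, and its medium effect of 0.80 did not pass (SE 0.25, adjusted p = 0.139). With BTZ in growth medium Trim54 differed from untreated by 1.03. The untreated growth array of Trim54, at 5.07, was close to the floor of 5.06, so differences from it may be compressed. With BTZ in differentiation medium Trim55 differed from untreated by -0.51 and Trim54 by -0.14, beside -1.11 for Trim63; the difference between these values was not tested. The mean of the muscle markers moved with the BTZ values of Fbxo32 and Trim63 in differentiation medium, at 7.81 with BTZ against 9.75 untreated, and its part in them was not tested. In the fit, 6 of 12 muscle markers above the floor rose with differentiation medium and 0 fell, and 0 rose and 2 fell with BTZ. Between pairs of arrays, 9 of the 12 were at least 2-fold lower with BTZ in differentiation medium and 3 in growth medium. The shares of all genes were 8.91% and 6.16%, and 0 of the 12 were as much higher in either medium. In bulk RNA, fewer cells of a type and less RNA per cell cannot be told apart.

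**Figure D2:**
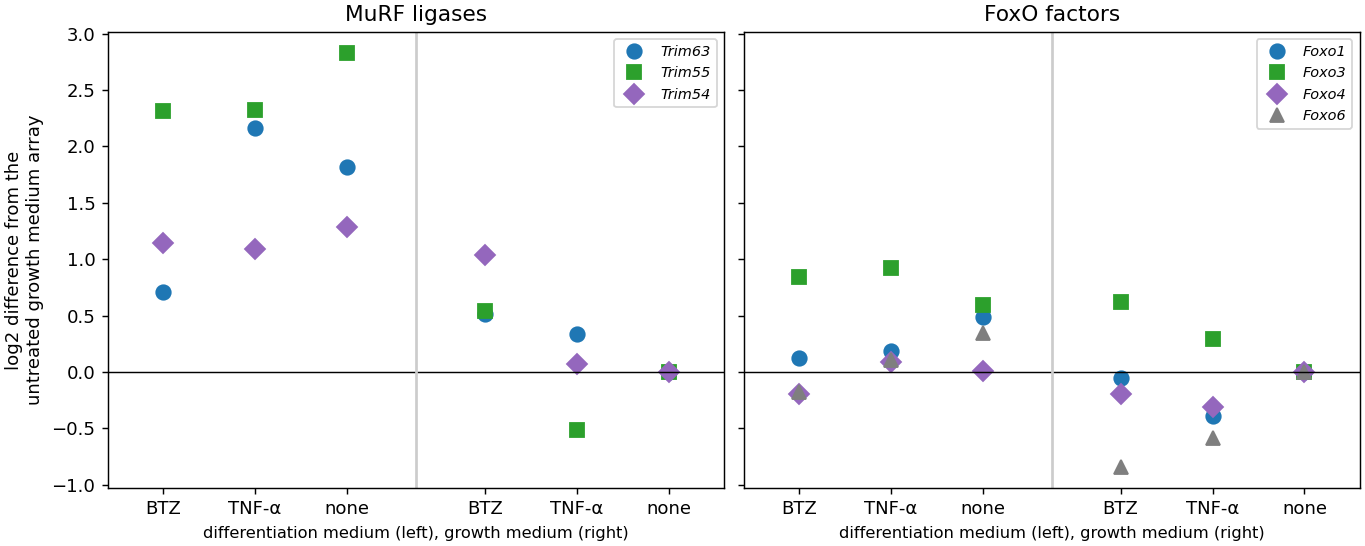
Log2 difference from the untreated growth medium array for the MuRF ligases (left panel) and the FoxO factors (right panel), 1 point per array, by treatment within each medium. Trim55 and Trim54 stay above 1 on all 3 differentiation medium arrays, and Trim54 is also at 1.03 with BTZ in growth medium. Trim63 is under 1 with BTZ in differentiation medium, where it differs by -1.11 from the untreated array of that medium. Between media, the BTZ cultures differ by 0.11 for Trim54, 0.20 for Trim63 and 1.77 for Trim55. The FoxO genes lie between -0.84 and 0.92.

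Fbxo30 (MUSA1), an F-box ligase known from mouse muscle as a target of BMP and FoxO control, had signals of 8.49 with BTZ, 7.54 with TNF-α and 7.42 untreated in differentiation medium. In growth medium they were 8.50 with BTZ, 7.52 with TNF-α and 7.69 untreated. Both BTZ arrays were the highest, and no neighbours in level among the other 4 arrays were apart by more than the spread. BTZ differed from untreated by 1.07 in differentiation medium and by 0.81 in growth medium. Differences as large were seen in 13.1% and 17.0% of genes above the floor. Fbxo30 rose with BTZ in the additive fit, by 0.94 (SE 0.18, adjusted p = 0.0274). That call was lost without either TNF-α array (adjusted p = 0.0505 and 0.0525), and without the untreated differentiation (0.294) or untreated growth array (0.198). The TNF-α differences were 0.12 and -0.18 in differentiation and growth medium, and the medium effect was -0.09 (adjusted p = 0.772).

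Traf6, a RING ligase that builds lysine-63 ubiquitin chains downstream of cytokine and Toll-like receptors, had signals of 8.27 with BTZ, 7.59 with TNF-α and 7.40 untreated in differentiation medium. Growth medium gave 7.97 with BTZ, 7.35 with TNF-α and 6.88 untreated. The order BTZ, TNF-α, untreated was the same in both media. Of the 5 gaps between neighbouring levels, 3 were larger than the spread, among them that between the untreated growth array and the next. Traf6 rose with BTZ by 0.98 in the fit (SE 0.17, adjusted p = 0.0243), with differences of 0.87 in differentiation medium and 1.10 in growth medium. Differences as large were seen in 19.2% and 8.78% of genes above the floor. TNF-α differed from untreated by 0.19 in differentiation medium and 0.47 in growth medium, an effect of 0.33 that did not pass (adjusted p = 0.797).

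Nedd4, a HECT ligase with membrane receptors and Notch among its substrates, went the other way. It had signals of 11.49 with BTZ, 12.21 with TNF-α and 12.34 untreated in differentiation medium, and 11.35 with BTZ, 12.05 with TNF-α and 12.27 untreated in growth medium. Both BTZ arrays lay below the other 4. Nedd4 fell with BTZ, with an effect of -0.89 in the fit (SE 0.11, adjusted p = 0.0135). The differences were -0.86 in differentiation medium and -0.91 in growth medium. Of genes above the floor, 19.6% and 13.4% differed by as much in either direction. Nedd4 had the smallest residual SD of the 8, 0.03. The calls of Nedd4 and Traf6 were lost without the untreated differentiation array (adjusted p = 0.163 for Nedd4 and 0.199 for Traf6) and without the untreated growth array (0.162 and 0.256), settings in which 0% of all genes passed for BTZ.

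Cblb, a ligase that targets the insulin receptor substrate Irs1 in unloaded muscle, varied least, with a range of 0.50 over the 6 arrays. Its signals were 8.72 with BTZ, 8.23 with TNF-α and 8.67 untreated in differentiation medium, and 8.36 with BTZ, 8.22 with TNF-α and 8.44 untreated in growth medium. No neighbours in its order of levels were apart by more than the spread. The BTZ effect was -0.01 with a 95% interval of -0.45 to 0.43, and the TNF-α effect -0.33 with an interval of -0.77 to 0.11.

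**Figure D3:**
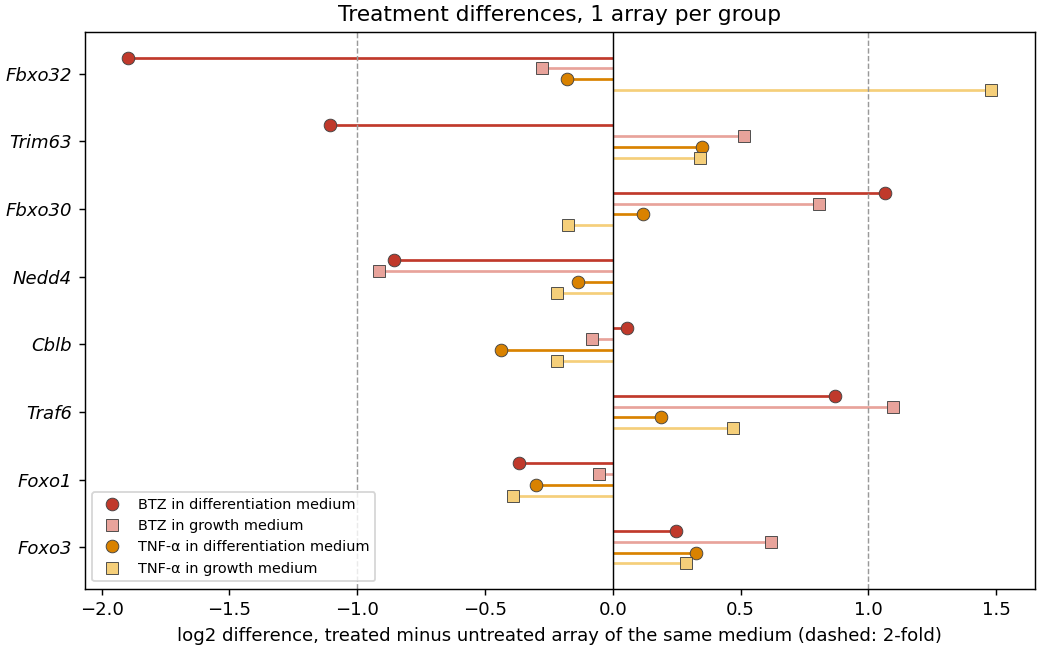
Log2 difference of each treated array from the untreated array of the same medium, for the 8 members (rows); circles are differentiation medium, squares growth medium, and dashed lines mark 2-fold. Fbxo30, Traf6 and Nedd4 have like BTZ differences in both media, while Fbxo32 and Trim63 do not.

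Foxo1 and Foxo3 had ranges of 0.88 and 0.92 over the 6 arrays, and no treatment call was made for either. Foxo1 had signals of 7.25 with BTZ, 7.31 with TNF-α and 7.62 untreated in differentiation medium, and 7.07 with BTZ, 6.73 with TNF-α and 7.13 untreated in growth medium. Its 2 probe sets differed in size in growth medium with TNF-α, at -0.54 and -0.25, and had opposite signs with BTZ there, at -0.16 and 0.05. Foxo3 had signals of 7.21 with BTZ, 7.29 with TNF-α and 6.96 untreated in differentiation medium, and 6.99 with BTZ, 6.66 with TNF-α and 6.37 untreated in growth medium. Treated arrays were below untreated ones in both media for Foxo1 and above them for Foxo3. In the fit, TNF-α gave -0.35 (95% interval -0.80 to 0.11) for Foxo1 and 0.31 (-0.16 to 0.77) for Foxo3, and BTZ gave -0.21 (-0.67 to 0.25) and 0.43 (-0.03 to 0.90); none passed. The medium effects were 0.42 (SE 0.15, adjusted p = 0.187) for Foxo1 and 0.48 (SE 0.15, adjusted p = 0.145) for Foxo3. With each array left out in turn, which leaves 1 array in an arm, they ran from 0.33 to 0.53 for Foxo1 and from 0.41 to 0.61 for Foxo3. Both were highest without a BTZ array. Of the relatives, Foxo4 differed by 0.01 and Foxo6 by 0.35 between the untreated media, and with BTZ in growth medium they differed from untreated by -0.20 and -0.84; the Foxo6 array with BTZ there was under the floor, so its difference may be compressed.

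**Figure D4:**
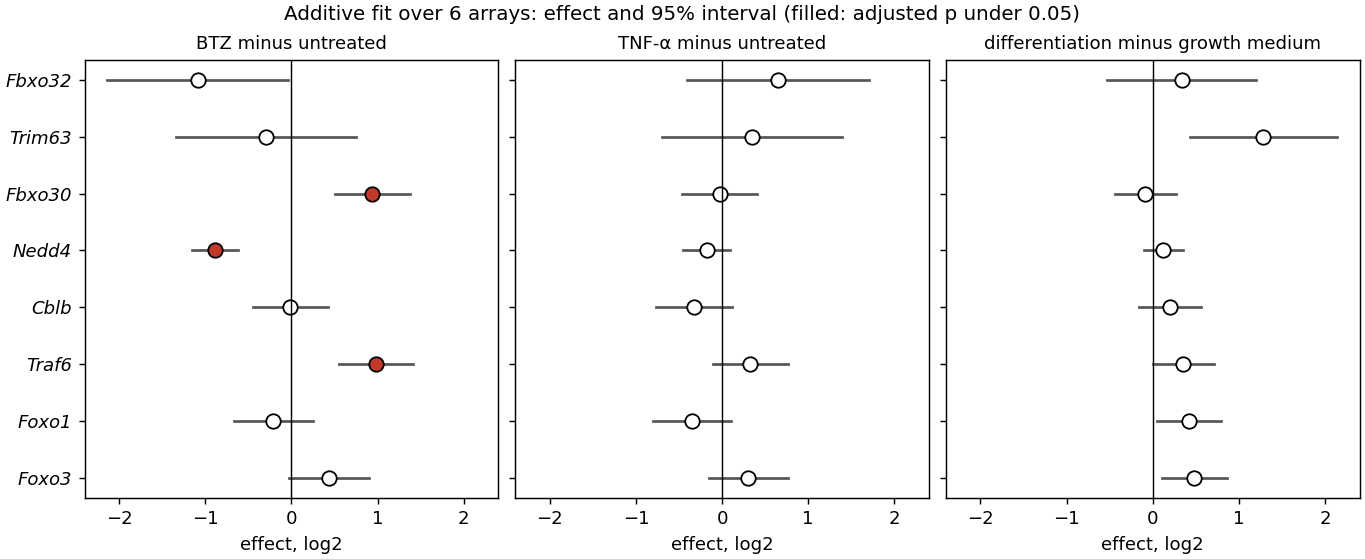
Effects of BTZ, TNF-α and medium on each member in the additive fit over 6 arrays, on the log2 scale, with 95% intervals; filled points passed an adjusted p of 0.05. Fbxo30 and Traf6 (0.94 and 0.98) and Nedd4 (-0.89) pass for BTZ, and Fbxo32 and Trim63 have the widest intervals.

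Counted over the 8 members, the fit called 2 higher and 1 lower with BTZ, where 14.2% of the 13652 genes were called (7.31% higher and 6.85% lower). It called 0 with TNF-α, where 0.0952% of all genes were called (0.0806% higher and 0.0146% lower). It called 0 for medium, where 4.03% were called (1.56% higher and 2.47% lower). At an unadjusted p under 0.05, 4 members passed for BTZ, 0 for TNF-α and 4 for medium. The share of all genes at that limit was not counted, so these counts say nothing of the members as a set. Among pairs of arrays, 1 member was at least 2-fold higher and 2 were lower with BTZ in differentiation medium, against 15.0% of all genes (6.05% higher and 8.91% lower). With BTZ in growth medium 1 was higher and 0 lower, against 11.1% (4.99% and 6.16%). With TNF-α in differentiation medium 0 were higher or lower, against 2.89% of all genes (2.01% and 0.879%). With TNF-α in growth medium 1 was higher and 0 lower, against 2.00% (0.982% and 1.02%). Between media, 2 were higher and 0 lower in the untreated cultures, against 8.75% of all genes (4.83% and 3.92%). In the TNF-α cultures 1 was higher and 0 lower, against 10.7% (5.85% and 4.85%), and in the BTZ cultures there were 0, against 3.67% (1.54% and 2.13%). The BTZ and TNF-α comparisons of a medium share its untreated array, which the comparison of untreated media also uses.

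Lists of other genes in the same pathway were read with the same fit, beside its shares over all genes of 14.2% for BTZ, 0.0952% for TNF-α and 4.03% for medium; without either untreated array 0% of all genes, and so none of theirs, passed for BTZ. Of 25 other muscle ubiquitin ligases above the floor, 3 rose with differentiation medium and 0 fell in the fit (median 0.28, against 0.01 over all genes), with 4 rising and 0 falling for BTZ (median 0.29, against -0.01) and 0 called for TNF-α. The muscle-specific Cullin-3 adaptor Klhl41 differed by 4.42 between the untreated media and Klhl31 by 3.56, and the membrane repair protein Trim72 by 3.89. The untreated growth arrays of Klhl41 (5.02) and Trim72 (4.82) were under the floor, so these differences may be compressed. With BTZ in differentiation medium Klhl41 differed from untreated by -1.93, Klhl31 by -2.91 and Trim72 by -2.93, while Mdm2, the ligase of p53, differed by 1.90.

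In the insulin and Akt arm, which restrains FoxO, 3 of 20 genes rose with differentiation medium and 0 fell in the fit, and 3 rose and 4 fell with BTZ; 0 were called for TNF-α. The growth factor Igf1 had signals of 5.23 with BTZ, 7.91 with TNF-α and 9.56 untreated in differentiation medium, against 4.85 with BTZ, 5.20 with TNF-α and 6.59 untreated in growth medium. Igf1 fell with BTZ, with an effect of -3.03 (SE 0.61, adjusted p = 0.0315), a size that may be compressed because the growth array with BTZ was under the floor. Deptor, an inhibitor of mTOR, fell with BTZ, with an effect of -2.55 (SE 0.25, adjusted p = 0.0105). Trib3, an Akt-binding pseudokinase, rose by 1.92 (SE 0.29, adjusted p = 0.0178). Irs1, the adaptor that Cblb targets, differed from untreated by -0.49 with BTZ and -0.12 with TNF-α in differentiation medium, and by -1.71 with BTZ and -1.07 with TNF-α in growth medium. Neither Irs1 effect passed in the fit (adjusted p = 0.0707 for BTZ and 0.791 for TNF-α).

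Among 24 known FoxO target genes, 2 rose and 0 fell with differentiation medium in the fit (median 0.23), 3 rose and 2 fell with BTZ (median 0.09), and 0 were called for TNF-α (median 0.09). Gabarapl1, of the autophagosome, rose with BTZ by 1.63 (SE 0.22, adjusted p = 0.0159), and the transcriptional regulator Cited2 fell, with an effect of -1.74 (SE 0.17, adjusted p = 0.0104). Bcl6, a transcriptional repressor, rose with differentiation medium by 1.35 (SE 0.21, adjusted p = 0.0318). With TNF-α the superoxide dismutase Sod2 differed from untreated by 1.92 in differentiation medium and 1.47 in growth medium.

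In the TNF and TRAF6 arm, 2 of 21 genes rose with TNF-α and 0 fell, and 4 rose and 1 fell with BTZ. The genes called for TNF-α were the feedback inhibitors Nfkbia at 2.77 (SE 0.23, adjusted p = 0.0439) and Tnfaip3 at 2.67 (SE 0.21, adjusted p = 0.0399). Sqstm1, an autophagy receptor that binds Traf6, rose with BTZ by 1.42 (SE 0.16, adjusted p = 0.012), beside the 0.98 of Traf6 itself. Tnfrsf1b, a TNF receptor, fell with BTZ, with an effect of -1.03 (SE 0.21, adjusted p = 0.032).

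The genes whose levels ran most like a member's were sought among 4465 other genes with a range of at least 1, by Pearson correlation over the 6 arrays. The arrays share media and treatments, and the values are a description with no test. For Fbxo32 they were Fam241a (r = 0.98), Exoc6 (0.97) and Cox7b (0.95). Exoc6 had 6.18 with BTZ, 7.67 with TNF-α and 7.48 untreated in differentiation medium, and 6.58 with BTZ, 7.65 with TNF-α and 6.81 untreated in growth medium, with the same 3 arrays high as for Fbxo32. Atrnl1, Coq8a and Ppfia4 ran most like Trim63, each at 0.99. Lgals8, Mapk9 and Dtx2 ran most like Fbxo30, also at 0.99, and all were highest on both BTZ arrays. Lztfl1 (0.9997), Rnf114 (0.9956) and Repin1 (0.9956) ran most like Traf6. Nedd4, Cblb, Foxo1 and Foxo3 had ranges under 1 and were not matched.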

How the data were processed

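Total RNA of 6 C2C12 cultures was hybridised as biotin-labelled cDNA to 1 Affymetrix array each, per the labels' protocols. The values the authors deposited, 1 per probe set on each array, were read as log2 signals from their range of 1.66 to 14.06. Their background correction, summarization and normalization were not given in the sources used here. Of 41345 probe sets, 23521 had 1 gene symbol in the platform annotation, 1814 had several and 16010 were unnamed and not used. RefSeq held the Entrez number of 23328, with 0 symbols that differed. Probe sets of a gene were averaged, and 13652 of 22180 genes were kept, those whose highest array was at or above 5.06.

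Pairs of arrays were compared as log2 differences, with 2-fold as the limit. An additive model of medium, TNF-α and BTZ was fitted to all genes above the floor with lmFit and a trended eBayes of limma 3.58.1 (R 4.3.3). Its p-values were adjusted over all of these genes by Benjamini-Hochberg, at 0.05, and the script was tested on simulated data. Neighbouring levels of a gene were called apart where they differed by more than the moderated residual SD times the square root of 2. The members and the gene lists were chosen with earlier results of these data known. All members were named; from each list up to 4 genes with the largest differences in a comparison were eligible; the 3 most correlated genes were named for members with a range of at least 1. Nothing marks the arrays as separate batches, and their number limits the precision. Alternatives were scaling, floor, probe set choice, threshold, variance model and each array left out.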

Additional observations from a re-analysis of the deposited data

Results flagged for a closer look

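In 4 cases a treatment difference of a member had opposite signs in differentiation and growth medium; the difference between media was not tested, since each value comes from 1 array against 1. Fbxo32 differed from untreated with TNF-α by -0.18 in differentiation medium and by 1.48 in growth medium, a difference of differences of -1.66. Trim63 differed with BTZ by -1.11 in differentiation medium and by 0.51 in growth medium, a difference of -1.62. Fbxo30 with TNF-α differed by 0.12 and -0.18 in the same order (0.29). Cblb with BTZ differed by 0.06 and -0.08 (0.13), and after quantile normalization its value in differentiation medium was -0.040, so the opposite signs were lost. The values of Fbxo30 and Cblb lie within 0.2 of 0 in both media. The 0.51 of Trim63 in growth medium is taken from an untreated array that was under the floor, at 4.91, so its size is uncertain. Differences as large were seen there in 33.2% of genes above the floor.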

How the results depend on the processing

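No paired analysis was possible because every group has 1 array, so the groups share fewer than 2 replicate numbers. Each result was recomputed with arrays shifted to the same median, quantile normalization, the brightest probe set, no floor and a higher floor. None of these settings moved a count of called members by over 1.5 times, and the signs they turned belonged to 4 values near 0. With shifted arrays these were Fbxo30 with TNF-α in the fit (0.024), Cblb between media with TNF-α (-0.0035) and Fbxo30 between media with BTZ (0.0019). With quantile normalization it was Cblb with BTZ in differentiation medium (-0.040). After quantile normalization Fbxo30 with BTZ in differentiation medium fell just short of 2-fold (0.96) and Nedd4 there just reached it. At a limit of 1.5-fold, 2 members differed between media with TNF-α, 4 with BTZ in growth medium and 5 with BTZ in differentiation medium, against 25.6%, 28.4% and 33.4% of all genes. The eBayes fits without trend and with a robust prior changed no member's call. Leaving out each array in turn gave 0 to 5 members called for BTZ, 0 to 3 for medium and 0 for TNF-α. The count for BTZ was 0 without either untreated array and 5 without the growth medium BTZ array; for medium it was 3 without either BTZ array. Over these fits the following effects changed sign, none of them called with all arrays: Fbxo32 for medium (-0.21 to 0.62) and TNF-α (-0.17 to 1.47), Trim63 for BTZ (-1.11 to 0.52) and TNF-α (-0.066 to 0.75), Fbxo30 for medium (-0.14 to 0.0050) and TNF-α (-0.17 to 0.11), and Cblb for BTZ (-0.13 to 0.11). Without the growth medium BTZ array the BTZ effects of Trim63 and Fbxo32 were -1.11 and -1.48. A lone array left in an arm is assumed to vary like the others. The counts of 5 and 3 are given without the share of all genes called in the same fits, so they say nothing of the members as a set. Trim63 is close to background in growth medium, which limits its folds there.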

Other observations

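Known substrates and partners of the member ligases, 6 of which also stand in the muscle marker list, were set beside them. Of 18 above the floor, 5 rose with differentiation medium and 0 fell in the fit, and 1 rose and 2 fell with BTZ. Between pairs of arrays with BTZ, 1 was at least 2-fold higher and 10 lower in differentiation medium. In growth medium 0 were higher and 1 lower. The shares of all genes were 6.05% higher and 8.91% lower in differentiation medium, and 4.99% and 6.16% in growth medium. With BTZ in differentiation medium Tnni2, a troponin of fast fibres, differed from untreated by -3.93, the embryonic myosin Myh3 by -3.77 and the myosin light chain Mylpf by -3.65. Myod1, a myogenic factor that Fbxo32 is known to target, had signals of 6.83 with BTZ, 8.81 with TNF-α and 9.73 untreated there.

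In the myostatin, BMP and glucocorticoid arm, 1 of 19 genes rose and 2 fell with differentiation medium, and 0 rose and 3 fell with BTZ. Follistatin (Fst), an antagonist of myostatin, was not among those called for BTZ (effect -2.27, SE 0.61, adjusted p = 0.0621). It differed by -3.50 with BTZ and by -0.56 with TNF-α in differentiation medium, and by -1.03 with BTZ in growth medium. Among 12 genes of ubiquitin and its conjugating enzymes, Ube2o rose with BTZ by 1.54 (SE 0.17, adjusted p = 0.012) and Ube2d1 fell, with an effect of -1.08 (SE 0.26, adjusted p = 0.0477), while 0 were called for TNF-α or medium. Of 10 genes of the SCF core, cullins and other F-box proteins, 1 rose with BTZ and 0 fell: Fbxw11, the substrate receptor of another SCF ligase, at 0.91 (SE 0.19, adjusted p = 0.0324).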
